A study of Mus musculus with 6 samples.

Results

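The genes described here are 8 inhibitory receptor genes of T cells (Pdcd1, Ctla4, Lag3, Havcr2, Btla, Cd160, Cd200r1 and Vsir) and Tox, a nuclear factor tied to their expression. They were chosen by name as 9 of the 17369 gene columns of the deposited single-cell table, and were read in every library, genotype and deposited cluster. The cells were CD4+ Th9 cells, a T helper subset that makes IL-9, and were made in culture. There were 3 samples from Cblb-/- mice and 3 from wild-type mice. Cblb encodes CBL-B, a ubiquitin ligase that restrains T cell activation. In both genotypes, naive CD4+ T cells of the spleen were cultured for 48 h with 3 ng/ml human TGF-beta, 20 ng/ml IL-4 and 20 µg/ml of an antibody against interferon-gamma, then purified on anti-CD4 beads. The labels give no age or sex, and do not say whether each sample came from its own mouse. The p-values are therefore set against the spread of these 6 samples, and that spread may be technical.

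Inhibitory receptors dampen the signal of the T cell receptor or of the costimulatory receptor CD28. PD-1, BTLA and CD200R recruit phosphatases or adaptors through tyrosines in their tails, whereas CTLA-4 mainly takes the ligands CD80 and CD86 away from CD28. Most are induced by activation itself, so that they are found on freshly stimulated cells as well as on the chronically stimulated, dysfunctional T cells in which TOX is best known. In mouse CD8+ T cells, TOX sustains the program of that dysfunctional state.

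The table held 14503 knockout cells in libraries D, E and F and 12755 wild-type cells in libraries A, B and C. Median depth ranged from 35573 to 39628 unique molecular identifiers (UMIs, single captured transcripts) per cell, and 76 cell barcodes occurred in more than 1 library. Cblb itself stood at 18.4, 15.0 and 17.99 ppm in knockout libraries D, E and F, against 32.6, 31.1 and 30.9 ppm in wild-type libraries A, B and C. Here ppm is a gene's share of the summed depth-corrected counts of a library, in parts per 1000000. Transcripts of the Cblb locus were thus fewer but still counted. A 3' tag outside the deleted part would be counted in either genotype, but the source of the remaining counts was not tested. The 8 CD4+ T cell markers summed to 1610 to 1708 ppm in knockout and 1715 to 1764 ppm in wild-type libraries, and NK cell markers to at most 0.314 ppm in knockout and 0.277 ppm in wild-type libraries. B cell markers summed to 5.24 to 9.04 ppm in knockout and 2.92 to 3.52 ppm in wild-type libraries, most of it Cd79b. The 2 CD8 markers summed to 10.2 to 11.1 ppm in knockout and 5.68 to 7.20 ppm in wild-type libraries, most of it Cd8b1. Markers of gamma delta T cells summed to at most 2.04 ppm in knockout and 2.69 ppm in wild-type libraries, those of macrophages and dendritic cells to at most 1.75 ppm in knockout and 1.44 ppm in wild-type libraries. The NK cell markers Ncr1 and Klra8 and the macrophage markers Lyz2 and Fcgr1 had no column and are not in these sums. None of the marker genes with a column was at 0 in all 6 libraries. Whether these cells contributed to the differences below was not tested.

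Loss of Cblb did not move the inhibitory receptors together. Ctla4 and Lag3 were higher in knockout than in wild-type libraries, whereas Pdcd1, Btla and Tox were lower. Genes averaging 5 ppm or more were tested, which 7 of the 9 did, and 2 of these were higher and 3 lower by limma at an adjusted p of 0.05. Over all 8475 genes tested, 929 (11%) were higher and 1139 (13.4%) lower, so that 24.4% were called, which here means an adjusted p under 0.05. The libraries of the genotypes did not overlap for 6 of the 7 genes, against 45.3% of all genes tested. The median log2 difference was -0.30 over the 7 genes and -0.01 over all genes. Havcr2 and Cd200r1 fell below the filter and have values but no test.

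The positions of the called receptors in the genome (GRCm38, also called mm10) are as follows. Ctla4 (ENSMUSG00000026011) lies at chr1:60887000-60915832 on the plus strand and Pdcd1 (ENSMUSG00000026285) at chr1:94038305-94052553 on the minus strand. Lag3 (ENSMUSG00000030124) lies at chr6:124904361-124911705 on the minus strand, and Btla (ENSMUSG00000052013) at chr16:45224315-45257670 on the plus strand. Tox (ENSMUSG00000041272) lies at chr4:6686353-6991557 on the minus strand. Ctla4 and Pdcd1 share chromosome 1 and differed in direction. Their promoters are shown with that of Btla, so that a receptor that was higher, Ctla4, can be set beside 2 that were lower. No window of Lag3, the other higher receptor, is shown. The sequences are from RefSeq (GRCm38.p6). Each runs from 250 bases before to 50 bases after the annotated start. For Ctla4 the window lies within the gene span given above, so the start used is not the first base of that span. Capitals mark GGAAA, the core bound by NFAT factors, on either strand (TTTCC on the printed strand), and TATAAA. Both copies of GGAAA in the Pdcd1 window, which share no base, are read on the opposite strand, and the TATAAA of the Ctla4 window lies after the annotated start, near the end of the window.
Pdcd1, chr1:94052504-94052803, minus strand: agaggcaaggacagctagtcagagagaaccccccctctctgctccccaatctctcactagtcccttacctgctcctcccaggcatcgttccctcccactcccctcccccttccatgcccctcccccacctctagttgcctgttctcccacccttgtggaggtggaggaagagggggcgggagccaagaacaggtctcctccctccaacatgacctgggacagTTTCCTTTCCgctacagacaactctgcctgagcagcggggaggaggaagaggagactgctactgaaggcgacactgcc
Ctla4, chr1:60908775-60909074, plus strand: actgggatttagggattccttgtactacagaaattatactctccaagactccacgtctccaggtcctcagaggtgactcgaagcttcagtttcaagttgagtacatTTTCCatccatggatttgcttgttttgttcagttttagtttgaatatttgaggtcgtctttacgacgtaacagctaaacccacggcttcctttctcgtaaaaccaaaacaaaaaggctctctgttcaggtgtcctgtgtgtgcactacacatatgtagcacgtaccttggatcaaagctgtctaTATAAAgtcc
Btla, chr16:45224087-45224386, plus strand: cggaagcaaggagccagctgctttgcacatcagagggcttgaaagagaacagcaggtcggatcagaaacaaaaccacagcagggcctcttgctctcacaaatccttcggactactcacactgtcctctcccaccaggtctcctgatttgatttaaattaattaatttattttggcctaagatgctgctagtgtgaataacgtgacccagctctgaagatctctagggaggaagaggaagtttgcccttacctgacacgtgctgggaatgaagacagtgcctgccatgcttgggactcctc
GGAAA occurred in 61.3% of 32851 promoter windows of this length, TATAAA in 13.6% and TGANTCA, an AP-1 element that none of these 3 windows holds, in 7.81%. The Btla window held none of the 3 motifs. These are matches of letters, and nothing about binding was measured.

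**Figure D1:**
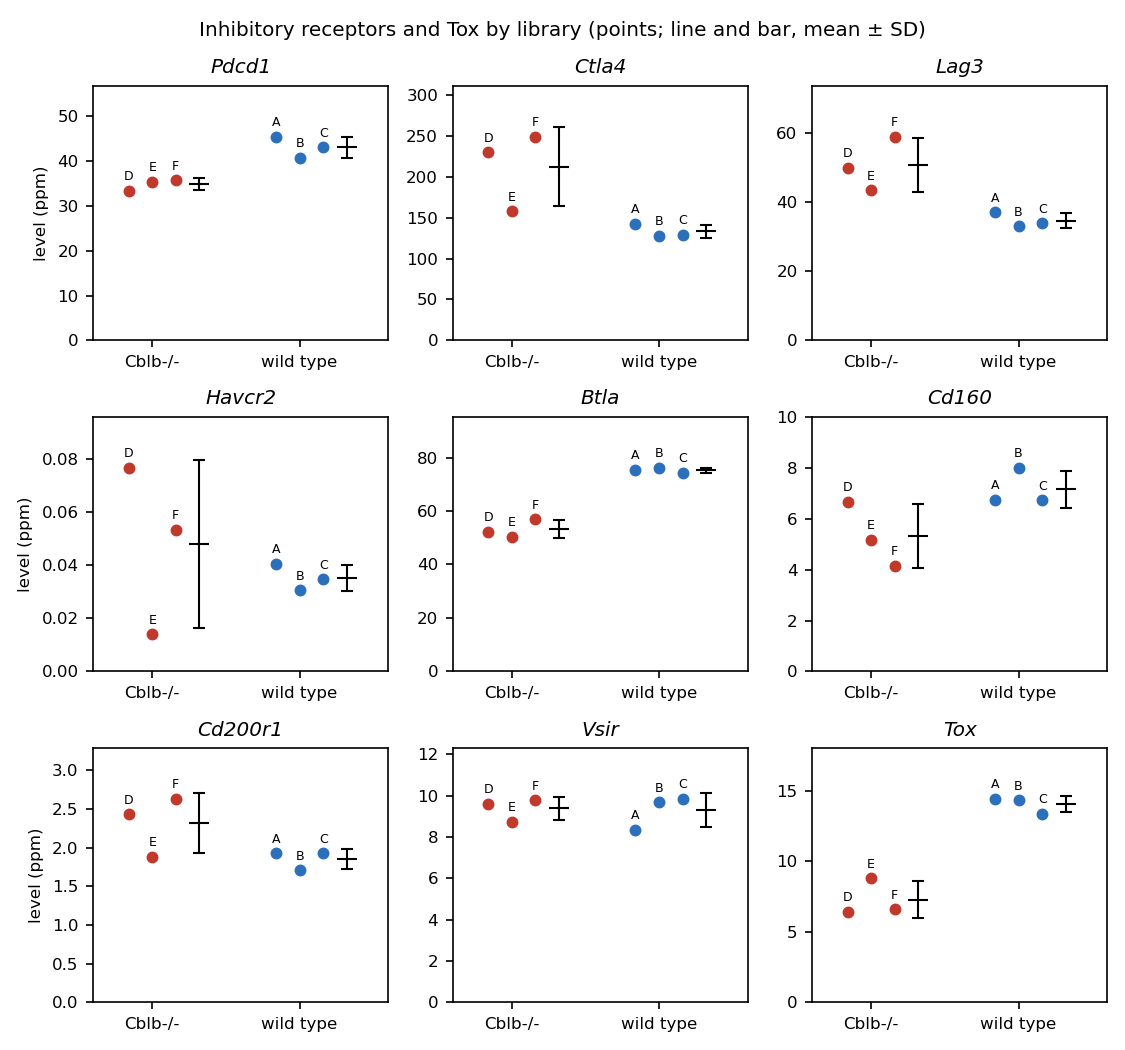
Level of each gene in each library, in parts per 1000000 (ppm) of the library's summed depth-corrected counts, on axes that start at 0. Points are single libraries with their letters, and the line with its bar beside them is the mean ± SD of 3 libraries. Knockout libraries lie above wild-type libraries for Ctla4 and Lag3 and below them for Pdcd1, Btla, Cd160 and Tox.

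Ctla4, whose product competes with CD28 for its ligands and is also abundant on regulatory T cells, was read in nearly every cell. Its level was 230, 158 and 249 ppm in knockout libraries D, E and F, against 142, 128 and 129 ppm in wild-type libraries A, B and C. Every knockout library was above every wild-type library, and library E was the closest to wild type. The means were 212 ± 48.0 ppm in knockout and 133 ± 8.06 ppm in wild-type libraries (SD, n = 3 each), a 1.59-fold difference. On the log2 scale it was 0.64 with an SE of 0.15 (limma, adjusted p = 0.0205). The call was lost without library A, B, C or D, with log2 differences of 0.57 to 0.69 and limma adjusted p of 0.0553 to 0.0807. Without library E the log2 difference was 0.84.

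Lag3 encodes a receptor that resembles CD4 and binds MHC class II. Its level was 50.05, 43.4 and 59.0 ppm in knockout libraries D, E and F, against 37.1, 33.0 and 34.0 ppm in wild-type libraries A, B and C. The groups did not overlap, and library E was again the knockout library nearest to wild type. The means of 50.8 ± 7.79 ppm in knockout and 34.7 ± 2.13 ppm in wild-type libraries (SD, n = 3 each) differed 1.46-fold, by 0.53 on the log2 scale with an SE of 0.10 (limma, adjusted p = 0.0109). Without library C the limma adjusted p was 0.0520 at a log2 difference of 0.51.

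Pdcd1 encodes PD-1, whose tail recruits the phosphatase SHP2. It stood at 33.4, 35.4 and 35.8 ppm in knockout libraries D, E and F, against 45.4, 40.8 and 43.1 ppm in wild-type libraries A, B and C. All 3 knockout libraries were below all 3 wild-type libraries. The mean was 34.9 ± 1.28 ppm in knockout and 43.1 ± 2.32 ppm in wild-type libraries (SD, n = 3 each). On the log2 scale knockout minus wild type was -0.30 with an SE of 0.05 (limma, adjusted p = 0.00845).

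Btla encodes a receptor of the same superfamily whose ligand is the TNF receptor family member HVEM. Its level was 52.3, 50.4 and 57.0 ppm in knockout libraries D, E and F, against 75.5, 76.1 and 74.3 ppm in wild-type libraries A, B and C. The gap between the groups was wider than the range within either of them. The means of 53.2 ± 3.38 ppm in knockout and 75.3 ± 0.95 ppm in wild-type libraries (SD, n = 3 each) lay -0.49 apart on the log2 scale, with an SE of 0.05 (limma, adjusted p = 0.00133). Btla lies 6.77 Mb from Cblb, and Cd200r1 7.24 Mb. Within 10 Mb of Cblb, 43.9% of 41 tested genes were called, 10 higher and 8 lower, against 26.6% on the rest of chromosome 16 and 24.3% on other chromosomes. Sequence around a targeted gene can stay that of the donor strain, and its part in the Btla difference was not tested.

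Tox, the nuclear factor, was also lower in knockout libraries. It stood at 6.43, 8.79 and 6.60 ppm in knockout libraries D, E and F, against 14.4, 14.3 and 13.4 ppm in wild-type libraries A, B and C. No knockout library came near the wild-type range. Its mean was 7.27 ± 1.32 ppm in knockout and 14.05 ± 0.59 ppm in wild-type libraries (SD, n = 3 each). On the log2 scale the difference was -0.87 with an SE of 0.11 (limma, adjusted p = 0.00231). That was the largest of the 7 tested genes at a pseudocount of 1 ppm, but at 10 ppm it was -0.48, against 0.61 for Ctla4.

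Cd160 and Vsir did not pass the test. CD160 is a receptor that, like BTLA, binds HVEM. Its gene stood at 6.68, 5.18 and 4.16 ppm in knockout libraries D, E and F, against 6.77, 8.02 and 6.75 ppm in wild-type libraries A, B and C. The groups were apart by a narrow margin, and the log2 difference was -0.38 with an SE of 0.14 (limma, adjusted p = 0.0849). Without library D the log2 difference was -0.53 (limma adjusted p = 0.0242), and among cells without a Foxp3 transcript it was -0.44 (limma adjusted p = 0.0496). Vsir encodes VISTA, an inhibitory receptor of resting T cells and myeloid cells. Its level was 9.62, 8.74 and 9.79 ppm in knockout libraries D, E and F, against 8.36, 9.67 and 9.85 ppm in wild-type libraries A, B and C. These values overlapped, and the log2 difference was 0.015 with an SE of 0.08 (limma, adjusted p = 0.907). Cd160 is overlapped on the other strand by Pdzk1 and Vsir by Cdh23, and whether reads were counted by strand is not given in the sources used here.

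Cd200r1 encodes the receptor of the surface protein CD200. It stood at 2.43, 1.88 and 2.63 ppm in knockout libraries D, E and F, against 1.93, 1.71 and 1.93 ppm in wild-type libraries A, B and C, and the groups overlapped. Havcr2, which encodes TIM-3, was close to absent. Its level was 0.0765, 0.0140 and 0.0532 ppm in knockout libraries D, E and F, against 0.0404, 0.0305 and 0.0347 ppm in wild-type libraries A, B and C. It was seen in 31 of 27258 cells. Of these, 5 lay in cluster 6, a group of 24 cells with 1833 ppm of mast cell and basophil markers, against 0.114 ppm in all other cells. In that cluster the share of cells with Havcr2 was 20.8% (95% exact binomial interval 7.13% to 42.2%, for counting error only).

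The share of cells in which a gene was seen followed the levels. Tox was seen in 19.1%, 24.5% and 19.2% of the cells of knockout libraries D, E and F, against 36.9%, 37.3% and 35.0% in wild-type libraries A, B and C. Lag3 was seen in 74.5%, 68.8% and 79.1% of knockout cells, against 63.7%, 59.6% and 60.0% of wild-type cells in the same order of libraries. The groups did not overlap for either gene, and how many of all genes were apart in this measure was not taken. Mean shares were 55.5 ± 0.99% in knockout and 60.4 ± 0.96% in wild-type libraries for Pdcd1, and 71.5 ± 2.49% in knockout and 80.3 ± 0.70% in wild-type libraries for Btla (SD, n = 3 each). Ctla4 was seen in nearly every cell, 95.5 ± 1.64% in knockout and 90.9 ± 1.02% in wild-type libraries (SD, n = 3 each). For these 5 genes the exact two-sided permutation test gave p = 0.1, the smallest that 3 against 3 libraries allow. Cd160 was seen in 15.4 ± 3.64% of knockout and 18.7 ± 1.30% of wild-type cells, with overlapping groups (SD, n = 3 each, exact permutation p = 0.3).

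Free RNA in droplets can place a transcript in a cell that does not make it. In cluster 6, whose median depth was 24759 UMIs against 38084 UMIs in the other cells, Ctla4 was seen in 21 of 24 cells, Btla in 9, Lag3 in 8, and Pdcd1 and Vsir in 3 each. Tox, Cd160 and Cd200r1 were seen in 0 of 24 cells, which allows a share of cells with a UMI of up to 12.5% (3 counts of 24), or 14.2% by the 95% exact binomial interval. The share of cells with Ctla4 was therefore hardly above that of cluster 6 (87.5%, 95% exact binomial interval 67.6% to 97.3%). Whether free RNA affected its level less was not tested. Of the 24 cells, 13 came from library F, so the shares of cluster 6 do not stand for each genotype apart. Pdcd1, Btla, Lag3 and Tox were seen in larger shares of the cells of both genotypes than in cluster 6.

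The mean number of different receptors seen per cell is the sum of the shares of the 8 receptors. Higher and lower shares offset each other in it, so it does not test whether receptors were seen together. The smallest p that 3 against 3 libraries allow is 0.1. Cells held on average 3.51, 3.34 and 3.56 of the 8 receptors in knockout libraries D, E and F, against 3.46, 3.45 and 3.42 in wild-type libraries A, B and C. The groups overlapped, with a difference of 0.028 receptors (exact permutation p = 0.8), and without library F it was -0.016. Cells with 4 or more receptors made up 51.1%, 45.5% and 54.0% of knockout libraries D, E and F, against 50.9%, 49.9% and 48.7% of wild-type libraries A, B and C. In pairs, joint detection was set beside the product of the 2 shares in each library. Pdcd1 and Tox were seen together 1.21, 1.17 and 1.255 times as often as that product in knockout libraries D, E and F, and 1.12, 1.11 and 1.11 times in wild-type libraries A, B and C. Vsir and Tox reached 1.12 to 1.24 times over the 6 libraries. These ratios are descriptions, since the cells of a library share its depth and free RNA.

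The genotypes differed in the make-up of the cultures, which could by itself move a level over all cells. Cluster 0, led by Tmem176a, Tmem176b and Dapl1, held 46.6% to 55.1% of knockout and 31.4% to 32.0% of wild-type cells. Cluster 1, led by Socs2, Ikzf4 and Phlda1, held 17.5% to 31.1% of knockout and 43.1% to 46.1% of wild-type cells. Cluster 2, led by Il9, Batf3 and Nppc, held 10.1% to 17.97% of knockout and 3.86% to 5.87% of wild-type cells. The genotypes were therefore also compared within each of the 6 clusters that had at least 50 cells in every library. With each of these clusters given the same weight, the log2 differences were 0.65 for Ctla4, 0.48 for Lag3, -0.28 for Pdcd1, -0.56 for Btla and -0.83 for Tox, all with a limma adjusted p of at most 0.0225.

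Within clusters, Btla and Tox were lower in 6 of 6, although Tox passed the filter in cluster 2 through its wild-type level, which leaves 5 clusters for it. In cluster 2 both Tox and Cd160 averaged under 5 ppm in knockout and over it in wild-type libraries. With a filter of 1 ppm, chosen after seeing the data, their limma adjusted p in cluster 2 was 0.00285 for Tox and 0.0486 for Cd160. Ctla4 was higher in 4 of 6 clusters (1, 2, 4 and 5), Lag3 in 3 (0, 1 and 2), and Pdcd1 was lower in 3 (0, 1 and 2), while the log2 differences of these 5 genes had the same sign in all 6. Of the 7 tested genes, 4 were called in cluster 0, 5 in cluster 1, 6 in cluster 2 (Tox and Cd160 among them), 2 in cluster 3, 3 in cluster 4 and 3 in cluster 5. Over all genes tested, 21.8%, 18.8%, 20.1%, 8.39%, 12.8% and 9.58% were called in clusters 0 to 5.

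**Figure D2:**
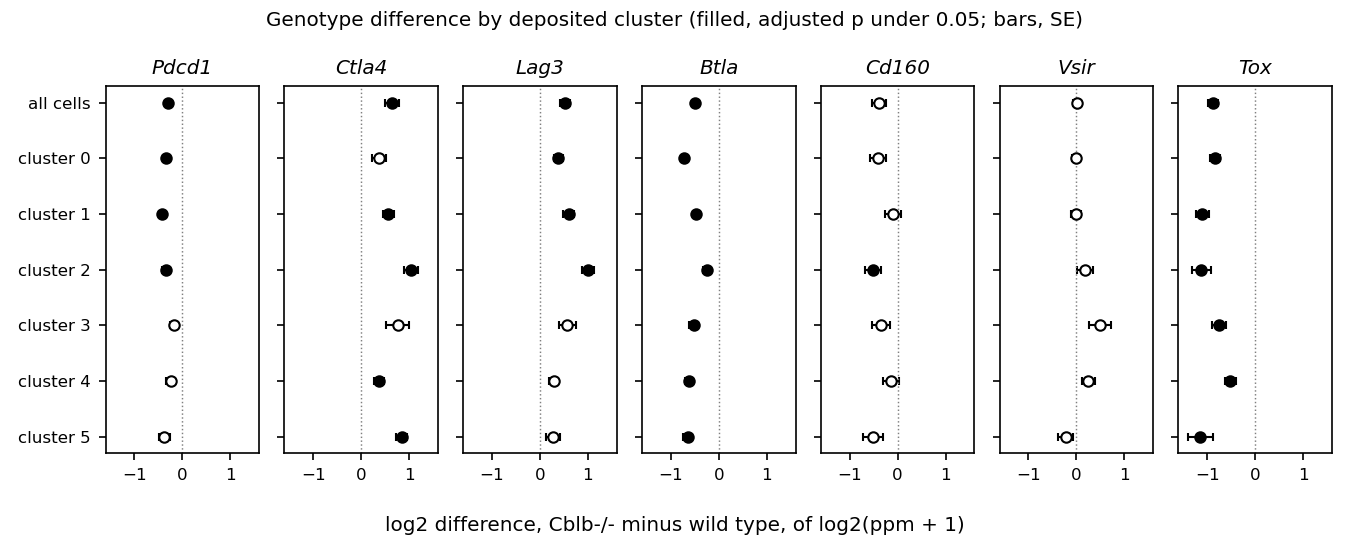
Log2 difference of each tested gene, Cblb-/- minus wild type, over all cells and within deposited clusters 0 to 5. Points are estimates on log2(ppm + 1) and bars their SE, with filled points for an adjusted p under 0.05. Btla and Tox lie left of 0 with filled points in all 6 clusters, and Ctla4 and Lag3 lie right of 0 in all 6, furthest in cluster 2.

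Tox had its largest log2 differences in clusters 5 and 2 and its smallest in cluster 4, where it was most abundant. In cluster 2 it was 3.22 ± 0.93 ppm in knockout and 8.18 ± 2.05 ppm in wild-type libraries (SD, n = 3 each; log2 difference -1.12, limma adjusted p = 0.00322), and without library A it fell below the filter and was not tested. In cluster 4, led by Ccl20, Cib2 and Igfbp7, it was 16.3, 16.7 and 14.5 ppm in knockout libraries D, E and F, against 24.0, 23.0 and 22.1 ppm in wild-type libraries A, B and C (log2 difference -0.52, limma adjusted p = 0.00726). The groups did not overlap in either cluster. Of all genes tested, 1930 of 8435 in cluster 2 and 1664 of 8612 in cluster 4 were likewise apart with knockout lower. The estimate in cluster 5, led by Akr1c18, Akr1c12 and Akr1c13, was -1.14. At a pseudocount of 10 ppm the estimate in cluster 2 was -0.46, against -0.59 in cluster 5 and -0.36 in cluster 4. No difference in effect between a cluster and the other cells passed the test for Tox, so these sizes are not shown to differ. Leaving out any wild-type library ended the Tox call in cluster 3, led by Ccl3, Ccl4 and Il3 (log2 differences of -0.82 to -0.71). In cluster 5 leaving out any library but E did so (log2 differences of -1.24 to -0.93).

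Btla stood at 55.7, 55.2 and 60.6 ppm in cluster 0 of knockout libraries D, E and F, against 92.2, 95.6 and 95.4 ppm in cluster 0 of wild-type libraries A, B and C. The groups lay far apart (log2 difference -0.71, limma adjusted p = 0.000278). In cluster 2 the levels were 46.6 ± 3.07 ppm in knockout and 55.6 ± 2.68 ppm in wild-type libraries (SD, n = 3 each; log2 difference -0.25, limma adjusted p = 0.0323). That call was lost without library A, C or D (log2 differences of -0.25 to -0.20) and with median-of-ratios scaling (-0.22). Pdcd1 ranged within clusters from a log2 difference of -0.43 in cluster 1 to -0.18 in cluster 3. Its call in cluster 0 was lost without library C (-0.31), and that in cluster 2 without library A, D or F (-0.32 to -0.28).

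Ctla4 and Lag3 differed most in cluster 2, the Il9 cluster. There Ctla4 stood at 272, 159 and 253 ppm in knockout libraries D, E and F, against 111, 101 and 110 ppm in wild-type libraries A, B and C. Lag3 stood at 35.7, 27.1 and 38.3 ppm in knockout libraries D, E and F, against 16.7, 16.9 and 15.0 ppm in wild-type libraries A, B and C. Neither gene's groups overlapped. Of all 8435 genes tested in cluster 2, 1249 were likewise apart with knockout higher and 1930 with knockout lower. The log2 differences were 1.04 for Ctla4 (SE 0.16, limma adjusted p = 0.00149) and 0.999 for Lag3 (SE 0.12, limma adjusted p = 0.000475). In wild-type cells, cluster 2 had the lowest Ctla4 and Lag3 of the 6 clusters, which was not so for Ctla4 in knockout cells, where cluster 1 was lowest.

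The genotype effect on Ctla4 was smaller in cluster 0 than in the other cells. It was 0.37 on the log2 scale within cluster 0, where the groups overlapped (limma adjusted p = 0.102), and 0.76 in the other cells. A small effect was not particular to cluster 0, since it was 0.38 within cluster 4 and 0.56 within cluster 1. The other cells pool clusters whose shares differed between the genotypes. The difference of -0.38 (SE 0.04) between cluster 0 and the other cells passed the test (limma adjusted p = 0.0379). So did 0.143% of the 8381 genes compared in this way. It lost the call without any 1 of the 6 libraries, at -0.41 to -0.35 and limma adjusted p of 0.0524 to 0.131. In cluster 2 the difference from the other cells was 0.43 for Ctla4 (limma adjusted p = 0.0710) and 0.43 for Lag3 (limma adjusted p = 0.0816), and neither passed. In cluster 2, 0 of 8334 genes (0%) passed this limma test of the difference in effect, with 1604 at an unadjusted p under 0.05. The call of Ctla4 in cluster 4 was lost without any library but E (0.29 to 0.41), and that of Lag3 in cluster 0 without library B or C (0.34 and 0.38). Without library E, Ctla4 was called in clusters 0 (0.56) and 3 (1.02) as well, and Lag3 in clusters 3 (0.80), 4 (0.35) and 5 (0.43). Without library F, Ctla4 was called in cluster 3 too (0.40). Cd160 was lower in cluster 2 (log2 difference -0.52, limma adjusted p = 0.0482), a call that median-of-ratios scaling (-0.50) or leaving out any library but E ended (-0.60 to -0.36). Vsir was called in 0 clusters, with an unadjusted p above 0.05 in each; without library E it was called higher in cluster 3 (log2 difference 0.71). Calls were also gained for Cd160 in clusters 0 (-0.59) and 1 (-0.32) without library D, for Pdcd1 in cluster 4 without library B (-0.36), and for Lag3 in cluster 4 with median-of-ratios scaling (0.32).

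**Figure D3:**
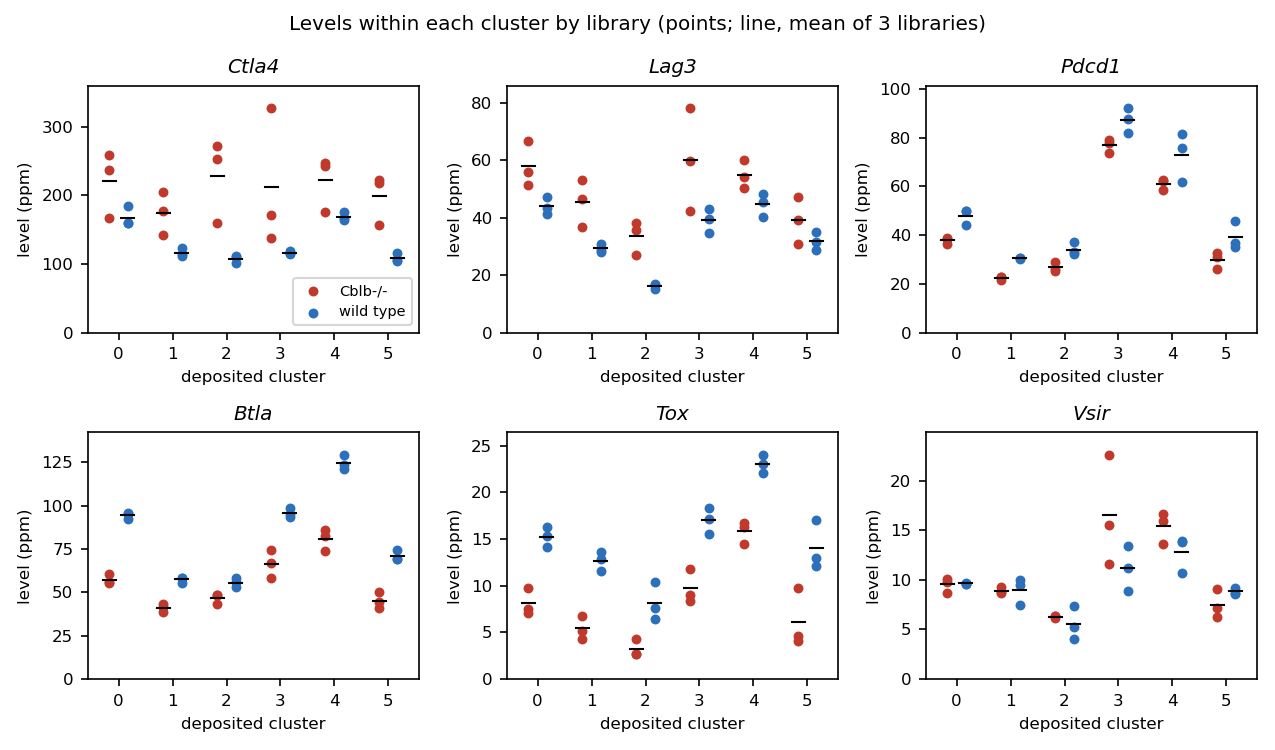
Level in ppm of 6 genes within each deposited cluster, one point per library and a line for the mean of 3 libraries, with knockout left of wild type and axes from 0. In cluster 2 the knockout points of Ctla4 and Lag3 lie well above the wild-type points, and Pdcd1 is highest in cluster 3 in both genotypes.

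Across clusters, the genes had different patterns. These levels are given without a test, since the clusters were made from the same cells. Pdcd1 was highest in cluster 3, at 76.8 ppm in knockout and 87.2 ppm in wild-type libraries, and lowest in cluster 1, at 22.4 ppm in knockout and 30.5 ppm in wild-type libraries. Btla was highest in cluster 4, at 80.8 ppm in knockout and 124 ppm in wild-type libraries. Tox was also highest in cluster 4 and lowest in cluster 2, with a 4.91-fold range of cluster means in knockout and a 2.82-fold range in wild-type libraries. Ctla4 varied 1.31-fold in knockout and 1.57-fold in wild-type libraries, and Cd160 1.68-fold in knockout and 1.41-fold in wild-type libraries. Over the 36 profiles of library by cluster, log2 levels correlated most between Btla and Tox (Pearson r = 0.85), Pdcd1 and Btla (0.82), Ctla4 and Lag3 (0.73), Lag3 and Vsir (0.72) and Pdcd1 and Tox (0.72). Btla and Tox kept r at 0.76 within the 18 knockout and 0.86 within the 18 wild-type profiles. Ctla4 and Tox had an r of -0.40 over all profiles, with -0.21 within knockout and 0.63 within wild-type profiles. Profiles of 1 library share its cells and depth, so r is a description only.

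The genes with the most similar profiles to each tested gene were also found. These r pool both genotypes, so a shared genotype difference enters them. Those of Ctla4 were Ckap4 (r = 0.92), Satb1 (0.92) and Gimap4 (0.92), and those of Tox were Sept7 (0.94), Adamts6 (0.93) and Arhgef3 (0.93). Ckap4, Satb1 and Gimap4 were themselves called higher in knockout libraries (log2 differences of 1.02, 0.99 and 0.66). Sept7, Adamts6 and Arhgef3 were called lower (-0.29, -0.66 and -0.48). Pdcd1 was most like Ccdc71l (0.92), Rilpl2 (0.91) and Igfbp7 (0.90), and Btla most like Hsd17b12 (0.93), Nol7 (0.91) and Mcur1 (0.90). Vsir was most like Camk2d (0.90), Gfod1 (0.88) and Hpcal1 (0.85), and Cd160 most like Vasp (0.78), Dnmt3a (0.74) and Xrcc5 (0.74). Lag3 was most like Ptms (0.91), Tspo (0.90) and Gabarap (0.88). Ptms lies 1.976 kb from Lag3 on chromosome 6 and was 166 ± 8.08 ppm in knockout and 141 ± 0.76 ppm in wild-type libraries (SD, n = 3 each; log2 difference 0.24, limma adjusted p = 0.00934). The r of Lag3 and Ptms was 0.74 within knockout and 0.97 within wild-type profiles. Cd4, 16.14 kb from Lag3, went the other way and was called lower in knockout libraries (log2 difference -0.205, limma adjusted p = 0.0224). That call was lost without library A, B, C or F. The genes around Lag3 thus did not all differ in its direction.

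The receptors were also read in cells set apart by a single transcript. In cells with a corrected Il9 count of at least 10, Ctla4 was 220 ± 58.6 ppm in knockout and 108 ± 2.80 ppm in wild-type libraries, and Lag3 was 36.2 ± 7.05 ppm in knockout and 18.4 ± 2.04 ppm in wild-type libraries (SD, n = 3 each). In cells with no Il9, Ctla4 was 210 ± 42.5 ppm in knockout and 146 ± 11.2 ppm in wild-type libraries, and Lag3 was 57.4 ± 8.13 ppm in knockout and 39.6 ± 2.88 ppm in wild-type libraries (SD, n = 3 each). Tox was 3.78 ± 1.249 ppm in knockout and 8.94 ± 1.12 ppm in wild-type libraries among the Il9-high cells, and 9.81 ± 1.18 ppm in knockout and 16.01 ± 0.46 ppm in wild-type libraries among cells with no Il9 (SD, n = 3 each). The libraries did not overlap in any of these 6 comparisons. Over all cells 45.3% of tested genes did not overlap, and that share was not taken within these sets of cells. Pdcd1 overlapped among cells with no Il9, at 37.98, 39.5 and 43.9 ppm in knockout libraries D, E and F, against 47.9, 42.9 and 48.3 ppm in wild-type libraries A, B and C. Among the Il9-high cells it did not overlap, with means of 26.7 ppm in knockout and 34.8 ppm in wild-type libraries. In both genotypes, the Il9-high cells thus had less Lag3 and Tox than cells with no Il9.

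Ctla4 is also a gene of regulatory T cells, which are defined by FOXP3. Foxp3 averaged 6.39 ± 1.98 ppm in knockout and 14.9 ± 0.48 ppm in wild-type libraries (SD, n = 3 each). The 8 regulatory T cell markers summed to 812 to 1091 ppm in knockout and 697 to 744 ppm in wild-type libraries. Most of that sum was Il2ra, Tnfrsf18 and Il2rb. Of the 7 markers tested, Il2ra and Tnfrsf18 were higher and Foxp3 and Nrp1 lower, beside 11% and 13.4% over all genes tested. The calls of Tnfrsf18 and Nrp1 were each lost without at least 1 library. Cells with a Foxp3 transcript numbered 301 of 3423, 831 of 5666 and 515 of 5414 in knockout libraries D, E and F. In wild-type libraries A, B and C they numbered 902 of 3902, 1038 of 4301 and 1097 of 4552. Within the cells with Foxp3, Ctla4 was 203 ± 40.9 ppm in knockout and 123 ± 5.37 ppm in wild-type libraries, and Tox was 5.23 ± 2.03 ppm in knockout and 12.7 ± 0.96 ppm in wild-type libraries (SD, n = 3 each). In cells without Foxp3, Ctla4 was 213 ± 48.7 ppm in knockout and 136 ± 8.79 ppm in wild-type libraries, and Tox was 7.52 ± 1.35 ppm in knockout and 14.5 ± 0.48 ppm in wild-type libraries (SD, n = 3 each). Knockout and wild-type libraries were apart for both genes in both sets of cells. The share of all genes that were apart in these sets was not taken, and over all cells it was 45.3% of tested genes.

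The tested ligands of these receptors were mostly higher in knockout libraries, with 7 of 10 genes higher and 2 lower (median log2 difference 0.33). Over all genes tested, 11% were higher and 13.4% lower. The CTLA-4 ligand genes Cd80 and Cd86 averaged 0.41 and 0.17 ppm in knockout and 0.38 and 0.085 ppm in wild-type libraries. Tnfrsf14, the gene of HVEM, averaged 0.57 ppm in knockout and 0.64 ppm in wild-type libraries. These genes were below the filter and not tested, and Fgl1 and Igsf11 had no column. H2-Ab1, an MHC class II chain and thus part of the ligand of LAG-3, stood at 22.3, 6.68 and 23.9 ppm in knockout libraries D, E and F, against a mean of 5.36 ± 1.27 ppm in wild-type libraries (SD, n = 3; log2 difference 1.39, limma adjusted p = 0.0448). Library E was level with wild-type library C (6.68 ppm in both), and the call was lost without any library but E (limma adjusted p up to 0.135). H2-Aa, the other MHC class II chain gene of this list, was below the filter and not tested. It stood at 0.42, 0.51 and 0.82 ppm in knockout libraries D, E and F, against a mean of 0.14 ppm in wild-type libraries. Lgals3, which encodes galectin-3 and can bind LAG-3, rose by 0.99 (limma adjusted p = 0.000593). Cd200, the ligand of CD200R, rose by 0.48 (limma adjusted p = 0.00215). Like Btla, Cd200 lies within 10 Mb of Cblb, and the part of donor-strain sequence in its difference was not tested. Pdcd1lg2, which encodes the PD-1 ligand PD-L2, rose by 0.39 (limma adjusted p = 0.0184). Cd274, the gene of PD-L1 and named here after its value was seen, rose by 0.33 (limma adjusted p = 0.0141). Both PD-1 ligand calls were lost without library B or C, whereas those of Lgals3 and Cd200 held without each library in turn. The other 2 higher genes, the MHC class I genes H2-K1 (0.33) and H2-D1 (0.31), are also named after their values were seen. The call of H2-K1 was lost without library B or C (limma adjusted p up to 0.0632) and that of H2-D1 without library A, B or C (up to 0.0790). The 2 lower genes, Hmgb1 (-0.24) and Lgals9 (-0.21), encode ligands of TIM-3, and the call of Lgals9 was lost without library A or B.

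Among costimulatory receptors and related genes, 5 of 10 tested were higher and 1 lower, beside 11% and 13.4% over all genes tested (median log2 difference 0.21). Tnfrsf9 (0.66), the gene of 4-1BB, Tnfrsf4 (0.55), that of OX40, and Cd40lg (0.51) rose (limma adjusted p of 0.0419, 0.00756 and 0.0181). Icos, a costimulatory receptor gene 62.1 kb from Ctla4, was 37.4 ± 2.25 ppm in knockout and 56.0 ± 3.32 ppm in wild-type libraries (SD, n = 3 each; log2 difference -0.57, limma adjusted p = 0.00156). Ctla4 and Icos, neighbours on chromosome 1, thus differed in opposite directions. Of 7 tested genes of other inhibitory receptors and adaptors, 1 was higher and 2 lower, beside the same background. Cd5 rose by 0.38 (limma adjusted p = 0.0315), while Lax1 (-1.02, limma adjusted p = 0.00262) and Sit1 (-0.38, limma adjusted p = 0.00607), which encode transmembrane adaptors, fell. Lax1 averaged 3.68 ppm in knockout and 8.35 ppm in wild-type libraries, so that it passed the 5 ppm filter through wild type. With a filter of 1 ppm its limma adjusted p was 0.00230. The calls of Tnfrsf9 and Cd5 were lost without any library but E, and that of Cd40lg without library A or B, while those of Tnfrsf4, Icos, Lax1 and Sit1 held without each library in turn. Tigit, below the filter, averaged 0.10 ppm in knockout and 0.060 ppm in wild-type libraries.

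Genes of the machinery around the receptors were not called more often than genes in general, of which 24.4% were called. Of 16 tested phosphatases and adaptors that inhibitory receptors recruit, 2 were higher and 1 lower (median -0.06). Dok1 rose by 0.33 and Rasa2 by 0.15 (limma adjusted p of 0.0272 and 0.0279), and Csk, which encodes a kinase that restrains LCK, fell by 0.19 (limma adjusted p = 0.0101). Ptpn6 and Ptpn11, the genes of SHP1 and SHP2, had log2 differences of -0.06 and -0.09 and were not called. Of 17 tested genes for trafficking, shedding and turnover of these receptors, 2 were higher and 2 lower (median -0.02). They were Klhl22 (0.49), whose product marks PD-1 for degradation and which passed the filter through its knockout level (6.58 ppm in knockout and 4.39 ppm in wild-type libraries, limma adjusted p = 0.00884 with a filter of 1 ppm), Cmtm4 (0.33) and Cmtm6 (-0.26), which stabilise PD-L1, and Rab8a (-0.14). The call of Cmtm4 held without each library in turn, whereas those of Dok1, Rasa2, Csk, Klhl22, Cmtm6 and Rab8a were each lost without at least 1.

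Of 23 tested genes of the TOX family and of other transcription factors of dysfunctional T cells, 5 were higher and 4 lower (median 0.03), beside 11% and 13.4% over all genes tested. Nr4a2, an orphan nuclear receptor gene of the family that acts with TOX in mouse CD8+ T cells, was 33.5, 21.5 and 39.5 ppm in knockout libraries D, E and F, against a mean of 7.09 ± 0.53 ppm in wild-type libraries (SD, n = 3; log2 difference 1.97, limma adjusted p = 0.00098). All 3 knockout libraries were above wild type. Satb1 rose by 0.99 (limma adjusted p = 0.00773), Batf by 0.81 (limma adjusted p = 0.00262) and Runx3 by 0.70 (limma adjusted p = 0.00484). The lower genes were Egr3 (-0.38), Id2 (-0.38), Id3 (-0.35) and Tcf7 (-0.26), of which Id2 kept its call without each library in turn, as did Nr4a2, Satb1, Batf and Runx3. Among the other TOX family genes, Tox4 had a log2 difference of -0.11 and was not called. Tox2 was below the filter at 0.49, 0.53 and 1.58 ppm in knockout libraries D, E and F, against 0.31 ± 0.072 ppm in wild-type libraries (SD, n = 3).

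**Figure D4:**
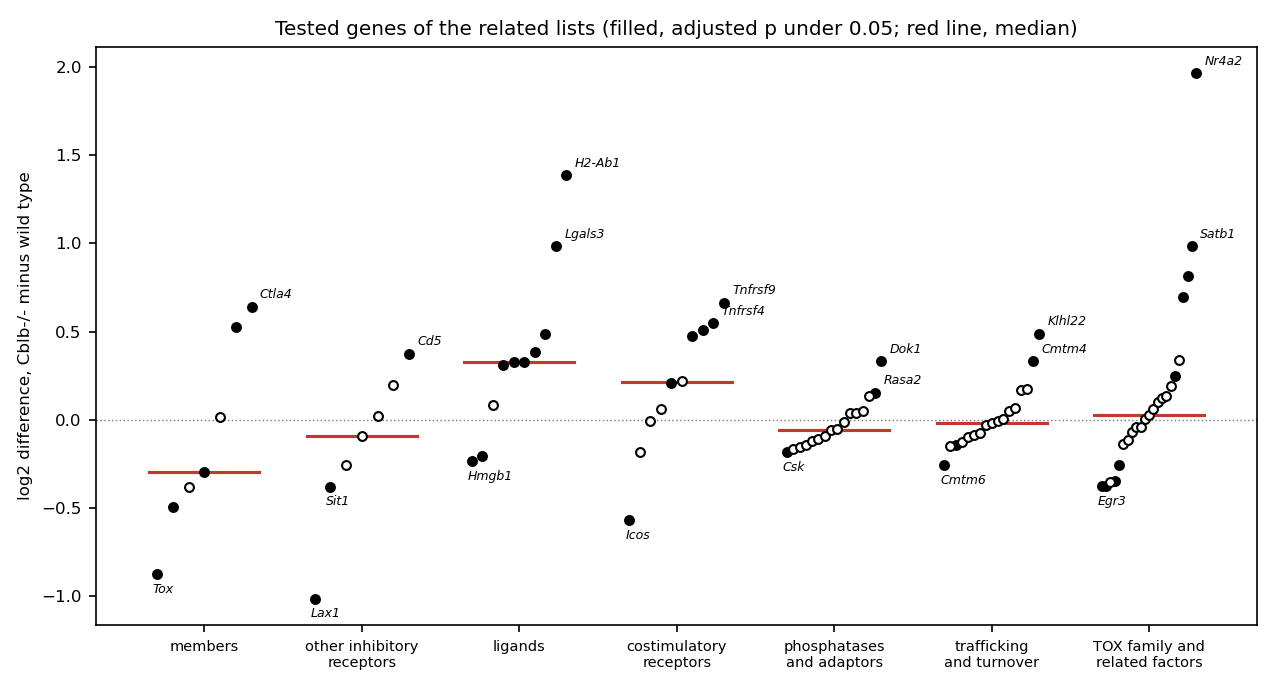
Log2 difference, Cblb-/- minus wild type, of every tested gene of the receptor group and of 6 related lists, sorted within each list, with filled points for an adjusted p under 0.05 and a red line at the median. The ligand list has a median of 0.33, with H2-Ab1 at 1.39 and Lgals3 at 0.99, and the phosphatase list lies close to 0.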

How the data were processed

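Single-cell RNA-seq (10x Genomics 3' kit) was done on 6 samples, 3 per genotype. The submitters' processing notes name the build mm10 and the tools Cell Ranger 3.0.2 and Seurat 3.0.0. The deposited values are a score for each gene in each cell, the count corrected to a common depth by sctransform, per the file headers. Count models do not apply to them. Each cell's raw UMI count and its percent of mitochondrial UMIs were also deposited by the authors, and ran from 15006 UMIs up and to 15.15 percent. Libraries bear an index and a genotype, with no replicate number, and are called A to C (wild type) and D to F (Cblb-/-). Doublets were not treated, since a caller needs raw counts per gene.

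Corrected counts were summed per library, divided by the library's sum and expressed as ppm. Genes averaging 5 ppm or more entered limma 3.58.1 in R 4.3.3, two-sided, on log2(ppm + 1) and with a trended prior variance. Its p-values were Benjamini-Hochberg adjusted over all genes tested, with a threshold of 0.05. Fold changes on that scale understate changes of low genes. The test was checked on simulated data. Named genes were the 9 genes, Cblb, up to 4 called genes per list by size of difference, and the 3 genes most like each tested gene. The genes and lists were chosen with earlier results of these data known. Coordinates are from GENCODE M21. Alternatives covered scaling, pseudocount, filter, cell subsets, weights and each library left out.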

Additional observations from a re-analysis of the deposited data

Results flagged for a closer look

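The genotype effect on Ctla4 differed between cluster 0 and the other cells. The log2 difference between Cblb-/- and wild-type libraries was smaller in cluster 0 (difference of the effects -0.38, limma adjusted p = 0.0379), at 0.37 in cluster 0 and 0.76 in the other cells, and all 6 libraries entered the test. It passed the threshold only with all 6 libraries, since the limma adjusted p was 0.0524 to 0.131 without any 1 of them. The effect within cluster 4 was 0.38, so a small effect was not particular to cluster 0.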

How the results depend on the processing

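Pdcd1, Btla and Tox kept their direction and passed the limma threshold in all 20 alternatives over all cells, Lag3 in 19 and Ctla4 in 16. Leaving out 1 library gave log2 differences of 0.51 to 0.84 for Ctla4 (adjusted p of 0.0553 to 0.0807 without A, B, C or D), 0.42 to 0.63 for Lag3 (0.0520 without C), -0.53 to -0.24 for Cd160 (0.0242 without D) and -0.053 to 0.060 for Vsir, with -0.053, -0.0026 and -0.014 without A, D and F. The cause was not tested. Cd160 passed without Foxp3 cells (-0.44, an alternative chosen after seeing the data). The effect on Ctla4 in cluster 0 against other cells was -0.41 to -0.35 without 1 library, an alternative also chosen after seeing the data. Calls numbered 396 to 1750 higher and 381 to 1396 lower without 1 library, against 929 and 1139, with fewest without C and most without E. There were 1433 higher with no filter, where more genes were tested, and 1404 with library weights, where the cause was not tested. Differences in shares of cells reversed for Vsir at a minimum value of 2 (-0.212 percentage points) or 3 (-0.0918), and reached -0.0757 to 1.72 without 1 library (reversed without A). For Havcr2 they reached -0.0542 to 0.0508 (reversed without D and, at -5.57e-05, without B), and for receptors per cell -0.016 to 0.094 (reversed without F). Within clusters, the ranges without 1 library were -0.056 to 0.046 for Vsir in cluster 0, -0.118 to 0.0747 for Vsir in cluster 1 and -0.32 to 0.0111 for Cd160 in cluster 1. Vsir turned sign under median-of-ratios scaling in clusters 0 (0.0074) and 1 (0.0082), without E in cluster 0 (0.0457) and without B (0.0386), C (0.0747), D (0.0071) or E (0.0172) in cluster 1, as did Cd160 in cluster 1 without E (0.0111). With log2 values averaged over cells, differences shrank to -0.21 for Tox, -0.15 for Pdcd1, 0.33 for Lag3, -0.05 for Cd160 and 0.0070 for Vsir, and Ctla4 (0.54), Btla (-0.33) and Lag3 then exceeded Tox in size. With a pseudocount of 10 ppm they shrank to -0.48 for Tox, -0.17 for Cd160 and 0.0073 for Vsir. A filter of 1 ppm within clusters, chosen after seeing the data, changed no call of a gene tested at 5 ppm. No paired analysis was possible because the deposited columns carry no replicate number. Havcr2 and Cd200r1 were below the 5 ppm filter; with no filter on low values they had adjusted p of 0.652 and 0.211.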
